A study of Mus musculus with 6 samples.

Results

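The cytosolic ribosomal protein genes were taken from the deposited table of counts by gene symbol, as every row whose symbol matched the pattern for the large (Rpl, Rplp) or small (Rps, Rpsa) subunit. The pattern found 77 genes of 22183 symbols, 46 of the large and 31 of the small subunit, and the pattern itself uses no measured value. Livers labelled DOX (3 samples) were compared with livers labelled PBS (3 samples). All 6 came from BucheKI/KI-Hep mice, which the series describes as overexpressing butyrylcholinesterase in hepatocytes, and all 6 carry the label DDC treatment, so neither a liver without DDC nor one without the knock-in enters the comparison. DOX is commonly short for doxycycline, an inducer of engineered genes, and DDC for a porphyrinogenic diet compound that injures bile ducts, but the labels spell out neither. The titles of all 6 samples also carry S2W, which the labels do not explain. Neither the labels nor the series text gives age, sex, the promoter that drives the knock-in, or whether each sample was a separate animal. The p-values therefore speak only of differences among the 6 samples, some of which may be technical. An effect of raised butyrylcholinesterase and an effect of the DOX agent cannot be told apart.

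A cytosolic ribosome joins a small subunit, which decodes the messenger RNA, to a large subunit, which forms the peptide bond. Each subunit holds ribosomal RNA and a fixed set of proteins, nearly all present as a single copy, so cells make the mRNAs of the whole family in roughly matched amounts. These mRNAs are short, abundant and mostly begin with a C followed by a run of pyrimidines, the 5′ terminal oligopyrimidine (TOP) tract, through which the kinase complex mTORC1 controls their translation and, with the protein Larp1, their stability. Hepatocytes, which export most plasma proteins, carry large numbers of ribosomes.

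The tract was not found at the annotated start of every member. To show starts with and without it, 50 bases around the annotated start are given for 10 members, taken from RefSeq on GRCm38.p6. Each runs 5′ to 3′ on the gene's own strand, with 35 bases before the start and 15 from it. Capitals mark a C at the annotated start with the unbroken pyrimidines that follow it, and any CCGGAAG, the core that ETS factors such as GABP bind. The first 7 were chosen because they hold the tract. For Rpl22, which has 2 annotated starts in the table, 1 is shown. Rpl12, Rpl36a and Rpl22 had the largest, the third largest and the smallest fold change of the large subunit genes.
Rps6, chr4:86857353-86857402, minus strand: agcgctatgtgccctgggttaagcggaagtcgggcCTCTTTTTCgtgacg
Rps18, chr17:33955651-33955700, minus strand: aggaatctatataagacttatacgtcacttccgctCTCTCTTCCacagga
Rps10, chr17:27635230-27635279, minus strand: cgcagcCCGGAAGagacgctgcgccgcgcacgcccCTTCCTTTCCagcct
Rps27, chr3:90213634-90213683, minus strand: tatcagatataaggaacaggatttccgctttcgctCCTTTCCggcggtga
Rpl35, chr2:39005117-39005166, minus strand: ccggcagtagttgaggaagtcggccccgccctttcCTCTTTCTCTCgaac
Rpl38, chr11:114668545-114668594, plus strand: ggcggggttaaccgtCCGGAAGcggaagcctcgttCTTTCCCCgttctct
Rplp2, chr7:141447616-141447665, plus strand: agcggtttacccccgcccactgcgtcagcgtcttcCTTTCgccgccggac
Rpl12, chr2:32961677-32961726, plus strand: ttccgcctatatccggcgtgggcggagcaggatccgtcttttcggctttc
Rpl36a, chrX:134585619-134585668, plus strand: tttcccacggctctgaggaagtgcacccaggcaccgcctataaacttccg
Rpl22, chr4:152325691-152325740, plus strand: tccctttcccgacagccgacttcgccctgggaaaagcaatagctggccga

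The RefSeq promoter table matched 57 of the 77 members by symbol. A C at the annotated start followed by at least 4 pyrimidines was present in 13 of these 57 (22.8%), against 800 of 26968 other genes (2.97%). The large subunit had 7 of 34 and the small subunit 6 of 23. CCGGAAG on either strand lay within the 300 bases from 250 before to 50 after the start in 24 of 57 members (42.1%), against 9.86% of the other genes. Both features are matches of letters to annotated starts, and a start placed a few bases off hides a tract. The median log2 fold change (DOX over PBS) was 0.90 for the 13 members with the tract and 0.86 for the 44 without it, and 0.88 and 0.86 for those with and without CCGGAAG.

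Every one of the 77 genes was higher in DOX than in PBS livers and passed the test, by 1.48-fold to 2.28-fold. The test was edgeR's quasi-likelihood test on the counts, run over 14681 genes, with p-values adjusted by the Benjamini-Hochberg method and called under 0.05, as for all adjusted p-values here. Among all genes tested, 13.5% rose and 14.0% fell. The adjusted p of the members ran from 0.00132 to 0.0162. The median log2 fold change was 0.85 for the 46 large subunit genes (0.56 to 1.19) and 0.92 for the 31 small subunit genes (0.70 to 1.11), against -0.01 for all genes tested. At least a 2-fold rise was seen for 10 large and 7 small subunit genes, together 17 of 77, against 2.64% of all genes tested. The 2 ranges overlap almost wholly, and no test was made of large against small subunit genes.

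**Figure D1:**
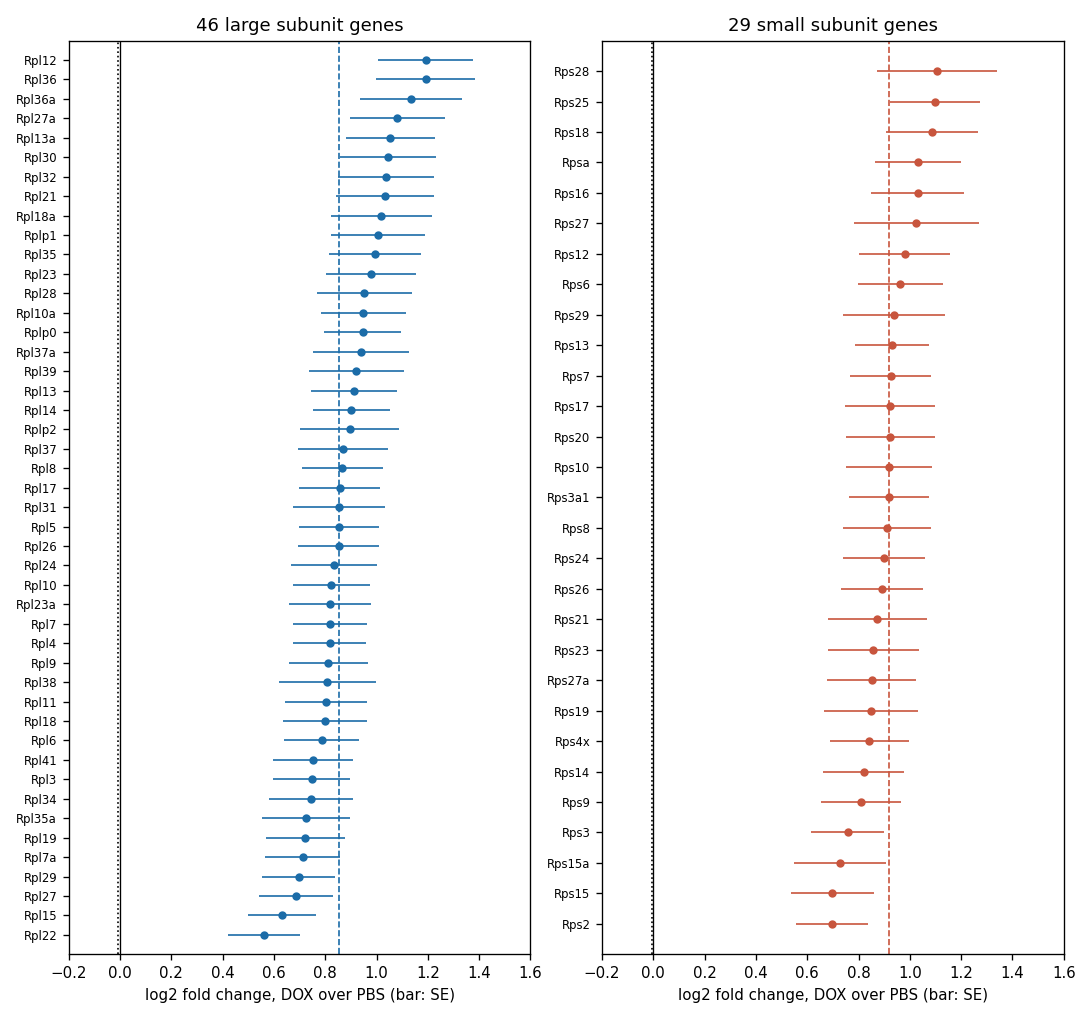
Log2 fold change, DOX over PBS, for 46 large (left) and 29 of the 31 small subunit genes (right), with bars for the standard error from edgeR. The dashed line is the median of all the subunit's genes, 0.85 for the large and 0.92 for the small, the solid line is 0, the dotted line is the median of all genes tested (-0.01), and every gene lies to the right of both.

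Summed over the large subunit, the genes took 2.40%, 1.56% and 2.39% of all counts in DOX 1 to 3, against 1.29%, 1.41% and 1.13% in PBS 1 to 3. The small subunit took 1.67%, 1.08% and 1.69% in DOX 1 to 3 and 0.895%, 0.975% and 0.779% in PBS 1 to 3. DOX 1 and DOX 3 were nearly alike, and DOX 2 lay between them and the PBS livers, nearer to PBS. The mean share of both subunits together was 3.60 ± 0.825% in DOX and 2.16 ± 0.239% in PBS livers (SD, n = 3 each), which is 1.67 times as high. With 799334 to 1641673 counts behind each library's share, the 95% Wilson interval is narrow (4.07 to 4.08% in DOX 1). It covers counting error only.

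The ratio of large to small subunit counts differed little between the groups, by a mean of -0.0138 (DOX minus PBS). It was 1.440, 1.445 and 1.412 in DOX 1 to 3, against 1.448, 1.443 and 1.448 in PBS 1 to 3. The mean ratio was 1.43 ± 0.0177 in DOX and 1.45 ± 0.00246 in PBS livers (SD, n = 3 each). DOX 3 was lowest, while DOX 2 lay within the PBS range and DOX 1 just under it. Weighed per gene length, as summed FPKM, the ratio was 1.36 ± 0.0155 in DOX and 1.36 ± 0.00442 in PBS livers (SD, n = 3 each), and the groups overlapped.

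**Figure D2:**
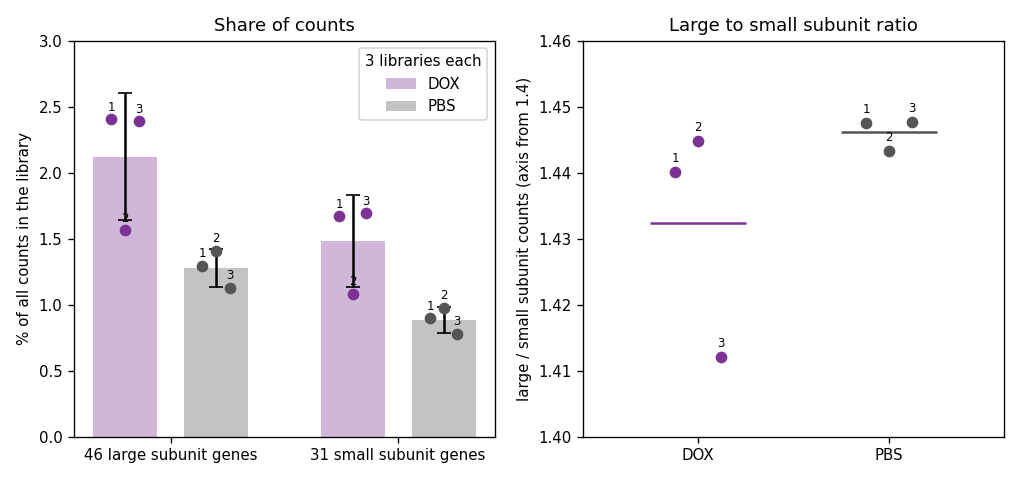
Left, the percentage of all counts in the library taken by large and by small subunit genes, as points for single libraries (numbered), bars for the mean and error bars for the SD of 3 libraries. Right, the ratio of large to small subunit counts per library with a line at the mean, on an axis that starts at 1.4. Both shares are higher in every DOX library than in every PBS library, while the ratio stays between 1.41 and 1.45.

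The lowest library of each group was the same for every member. DOX 2 was the lowest DOX library for 77 of 77 genes and PBS 3 the lowest PBS library for 77 of 77, while PBS 2 was the highest PBS library for 72. DOX 1 was the highest of all for 56 genes and DOX 3 for 21. The level in DOX 2 was a median of 0.652 times the mean of DOX 1 and DOX 3 (0.522 to 0.771). It still lay above the highest PBS library for all 77 genes, by a median of 1.27 times and by as little as 1.05 times for Rps15a. Groups that did not overlap, with DOX higher, were found for 21.8% of all genes tested. Without DOX 2 the median log2 fold change was 1.04 for the large and 1.09 for the small subunit genes, without DOX 1 it was 0.75 and 0.78, and without DOX 3 it was 0.79 and 0.83. Each member's log2 level followed the summed level of the family over the 6 libraries with Pearson's r of 0.980 or more (median 0.996). The sum includes the member itself. The 6 points also share the scaling of each library and the difference between the groups, so the value is a description.

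**Figure D3:**
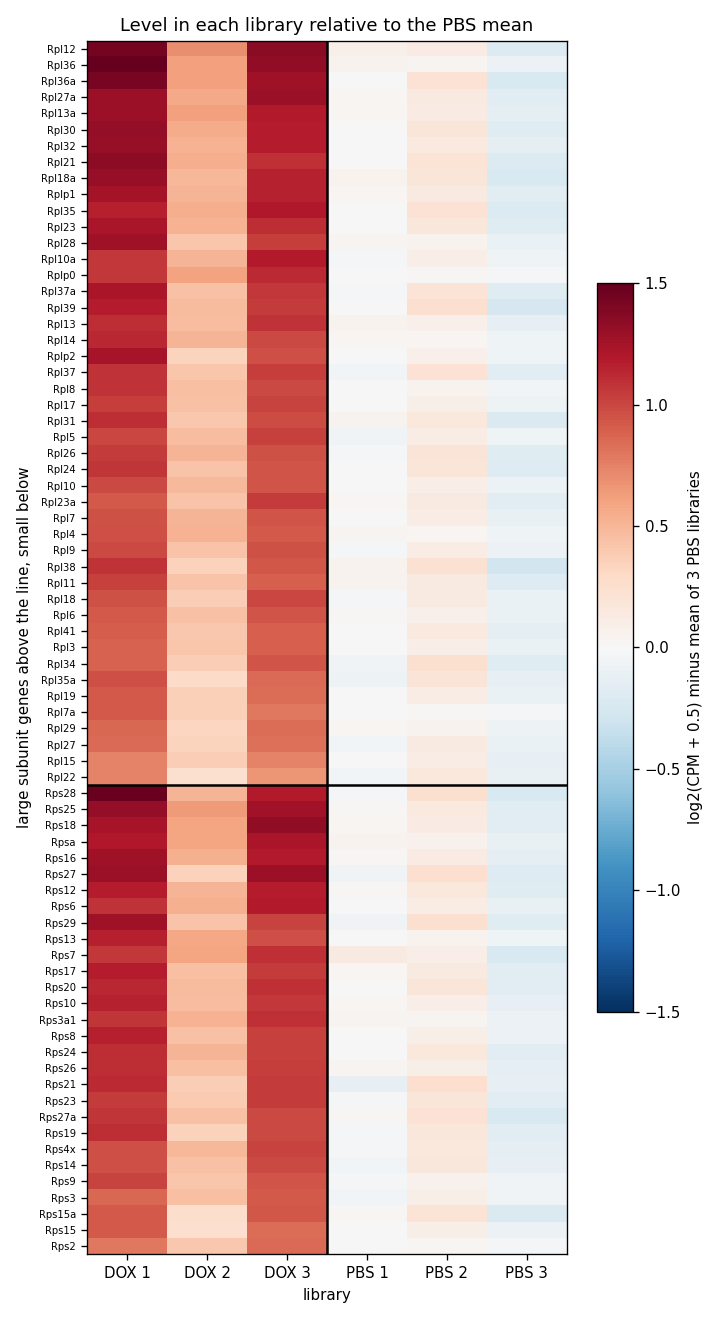
Level of 75 ribosomal protein genes in each library, as log2(CPM + 0.5) minus the mean of the 3 PBS libraries, with red for higher and blue for lower. Large subunit genes stand above the black line and small subunit genes below it, each sorted by fold change. DOX 2 is paler than DOX 1 and DOX 3 for every gene, and PBS 3 is the bluest PBS column.

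In the large subunit the greatest rises were those of Rpl12, Rpl36, Rpl36a and Rpl27a. Rpl12, a protein at the base of the stalk where elongation factors dock (chr2:32961712-32964045), stood at 761, 457 and 719 CPM (counts per 1e6 after TMM scaling) in DOX 1 to 3, against 297, 307 and 243 CPM in PBS 1 to 3. It rose by 1.19 on the log2 scale (SE 0.186), with an adjusted p of 0.0015 in edgeR. Rpl36 (chr17:56610094-56614246) had 544, 297 and 485 CPM in DOX livers, against 200.3, 199 and 182 CPM in PBS livers. In both genes DOX 2 stood well above the highest PBS liver, and DOX 1 and DOX 3 were higher still. For Rpl36 the log2 fold change was also 1.19 (SE 0.193). Rpl36a, an X-linked gene whose protein lies near the site where tRNA leaves the ribosome, had 293, 167 and 263 CPM in DOX livers, against 109.6, 127 and 92.7 CPM in PBS livers, with a log2 fold change of 1.13 (SE 0.199). Rpl27a averaged 630.3 ± 166 CPM in DOX and 298 ± 30.6 CPM in PBS livers (SD, n = 3 each), 2.12-fold higher.

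The smallest rises of the large subunit were those of Rpl22, Rpl15, Rpl27 and Rpl29. Rpl22, an RNA-binding protein that ribosomes can do without and that T cells need for their development (chr4:152324436-152334082), stood at 214, 151 and 202 CPM in DOX livers, against 123, 142 and 118 CPM in PBS livers. DOX 2 exceeded PBS 2 only slightly. The log2 rise was 0.56 with an SE of 0.140, and the adjusted p in edgeR was 0.0128. In edgeR the adjusted p of Rpl22 was 0.0504 without DOX 1, 0.0502 without DOX 3, 0.0524 without PBS 1, 0.0545 without PBS 3 and 0.0530 with scaling by library size alone, in a range of 0.000646 to 0.178 over all alternatives. Rpl15 averaged 312 ± 44.7 CPM in DOX and 202 ± 16.4 CPM in PBS livers (SD, n = 3 each; log2 fold change 0.63). Rpl27 and Rpl29, the second of which also binds heparin, rose by 0.69 and 0.70 on the log2 scale.

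The P stalk is the arm of the large subunit that recruits elongation factors, built from Rplp0 with the small acidic proteins Rplp1 and Rplp2, which are present in more than a single copy. Rplp0, often used as a reference gene in qPCR, stood at 1354, 990.3 and 1416 CPM in DOX 1 to 3, against 649.9, 657 and 644 CPM in PBS 1 to 3. The 3 PBS livers were almost equal, and every DOX liver lay well above them. The log2 fold change was 0.95 (SE 0.150), and the adjusted p of 0.00143 was the smallest among the large subunit genes in edgeR. Rplp1 had 1157, 692 and 1083 CPM in DOX livers, against 495, 531 and 435 CPM in PBS livers (log2 fold change 1.0, SE 0.183). Rplp2 had 389, 208 and 322 CPM in DOX livers, against 164.0, 173 and 157 CPM in PBS livers (log2 fold change 0.90, SE 0.192). In both genes DOX 2 stood nearer to the PBS livers than to DOX 1.

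Rpl5 and Rpl11 carry 5S ribosomal RNA into the large subunit, and outside the ribosome they bind Mdm2, the ligase that degrades p53. Rpl5 stood at 713, 491 and 723 CPM in DOX livers, against 343, 385 and 339 CPM in PBS livers, and rose by 0.85 on the log2 scale (SE 0.156). Rpl11 stood at 518, 342 and 472 CPM in DOX livers, against 263, 279 and 222 CPM in PBS livers, and rose by 0.80 on the log2 scale (SE 0.160). The groups did not overlap for either gene. All 8 genes of the proteins around the exit of the nascent peptide rose (Rpl17, Rpl19, Rpl22, Rpl23a, Rpl26, Rpl31, Rpl35 and Rpl39), with a median log2 fold change of 0.85 and a range of 0.56 to 0.99, of which Rpl22 was the lowest. All 46 large subunit genes rose as well, with the same median of 0.85. Rpl13a and Rpl14 completed the large subunit genes of smallest p. Rpl13a averaged 1005 ± 231 CPM in DOX and 484 ± 45.7 CPM in PBS livers, and Rpl14 averaged 307 ± 64.9 CPM in DOX and 164.0 ± 6.12 CPM in PBS livers (SD, n = 3 each).

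In the small subunit, Rps28, Rps25 and Rps18 had the greatest rises. Rps28, which sits where mRNA leaves the subunit, stood at 294, 149 and 239 CPM in DOX 1 to 3, against 104, 124 and 89.2 CPM in PBS 1 to 3. Its libraries were the most spread of these 3 genes, and its rise of 1.11 on the log2 scale had an SE of 0.235 and an adjusted p of 0.0102 in edgeR. Rps25, a protein of the subunit's head that several viral entry sites require (chr9:44407714-44410406), had 622, 387 and 593 CPM in DOX livers, against 252, 275 and 222 CPM in PBS livers (log2 fold change 1.10, SE 0.174). Rps18, another head protein, averaged 651 ± 165 CPM in DOX and 307 ± 29.8 CPM in PBS livers (SD, n = 3 each) and rose by 1.09 on the log2 scale. All 14 genes listed for the head rose, with a median log2 fold change of 0.93. This does not set the head apart, since all 31 small subunit genes rose, with a median of 0.92.

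Among the smallest rises of the small subunit were those of Rps2 and Rps15, with log2 fold changes of 0.70, and Rps15a, with 0.73. Rps2, at the channel where mRNA enters (chr17:24718121-24721927), stood at 1097, 841 and 1140.2 CPM in DOX livers, against 631, 646 and 623 CPM in PBS livers. The 3 PBS livers differed little, and the SE of the log2 fold change was 0.140. The other entry genes, Rps3 and Rps9, rose by 0.76 and 0.81 on the log2 scale, so the 3 entry genes had a median of 0.76. The 5 genes listed for the exit side had a median of 0.92. Rps15 averaged 445 ± 103 CPM in DOX and 274 ± 16.3 CPM in PBS livers (SD, n = 3 each). Rps15a had 253, 160.4 and 254 CPM in DOX livers, against 135, 153 and 114 CPM in PBS livers, with DOX 2 close to PBS 2. Its adjusted p in edgeR was 0.0131, and it was 0.0578 without DOX 1, 0.0513 without DOX 3 and 0.0536 without PBS 3, in a range of 0.000241 to 0.166 over all alternatives.

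Several small subunit genes are known for a second role. Rpsa, the precursor of a laminin-binding receptor, stood at 1317, 864 and 1333 CPM in DOX livers, against 591, 599 and 529 CPM in PBS livers (log2 fold change 1.03, SE 0.169). Rps6, the protein that S6 kinases phosphorylate downstream of mTORC1 and whose start is shown above, had 713, 486 and 769 CPM in DOX livers, against 335, 364 and 310.4 CPM in PBS livers (log2 fold change 0.96, SE 0.166). For both genes DOX 3 was the highest library. Rps27a, made as a fusion with ubiquitin, had 437, 284 and 416 CPM in DOX livers, against 211, 241 and 177 CPM in PBS livers (log2 fold change 0.85, SE 0.173). Rps13 had the smallest adjusted p of the family (0.00132 by edgeR) and averaged 265 ± 52.7 CPM in DOX and 139 ± 5.87 CPM in PBS livers (SD, n = 3 each). Rps27 had the largest adjusted p, 0.0162, with 299, 155 and 296 CPM in DOX livers, against 118, 145 and 106 CPM in PBS livers. Its rise of 1.03 on the log2 scale was among the larger ones, and its adjusted p in edgeR was 0.0683 without DOX 1, 0.0502 without DOX 3, 0.0612 without PBS 3 and 0.0795 without the filter on low counts, in a range of 2.24e-05 to 0.122 over all alternatives.

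Levels of different genes were set side by side as FPKM, the authors' counts divided by gene length and by the library total (fragments per kilobase per 1e6). The highest level was that of Rplp1, at 1981 ± 523 FPKM in DOX and 1101 ± 142 FPKM in PBS livers (SD, n = 3 each). Rpl41, the smallest ribosomal protein, followed at 1325 ± 267 FPKM in DOX and 878 ± 115 FPKM in PBS livers, ahead of Rps16 at 1211 ± 320.3 FPKM in DOX and 661 ± 81.7 FPKM in PBS livers (SD, n = 3 each). Rps29 and Rps18 came next, at 1133 ± 320.4 and 1126 ± 300.5 FPKM in DOX livers and 660.1 ± 116 and 591 ± 74.6 FPKM in PBS livers (SD, n = 3 each), and neither they nor Rps16 differed from each other beyond their spread. Rpl10, which joins the large subunit late in its assembly and was the third highest gene of that subunit, stood at 953 ± 185 FPKM in DOX and 601 ± 57.9 FPKM in PBS livers. At the low end were Rpl21 at 68.1, 38.9 and 59.4 FPKM in DOX 1 to 3 and 30.3, 35.4 and 25.2 FPKM in PBS 1 to 3, Rpl22 at 81.0 ± 15.1 and 61.2 ± 7.45 FPKM, Rps20 at 116 ± 28.4 and 68.1 ± 10.2 FPKM, and Rps15a at 41.1 ± 10.4 and 27.7 ± 4.81 FPKM, DOX livers before PBS livers (SD, n = 3 each). Rps15a and Rps20 had the longest gene models, of 5136 and 3641 bases against a median of 821 bases for the family, and the authors divided by these lengths. Rpl21 had the lowest CPM of the family before any division, at 121 CPM in DOX and 59.2 CPM in PBS livers on average. Over the 77 genes, Spearman's rho between log2 fold change and mean FPKM was 0.31, a description across genes that are not independent.

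The fold changes also went with gene length. Over the 77 members, Spearman's rho between log2 fold change and length was -0.30, and over the 14604 other genes tested it was -0.11. Of the other genes up to 500 bases long, 114 were tested and 30.7% rose, with a median log2 fold change of 0.52, while the 12 ribosomal protein genes of that length had a median of 0.95. Between 500 and 1000 bases the median was 0.20 for 703 other genes and 0.87 for 37 members. Between 1000 and 2000 bases it was 0.08 for 2467 other genes and 0.85 for 22 members, and between 2000 and 4000 bases it was -0.03 for 4903 other genes and 0.85 for 5 members. Other genes with a mean over 100 CPM, which 75 of the 77 members exceeded in both groups, stood at medians of 0.55 (10 genes), 0.30 (81), 0.19 (340) and 0.11 (556) in these 4 classes. Of these more abundant genes, 80.0%, 45.7%, 34.4% and 24.3% rose in the 4 classes. Over all lengths, 26.8% of the 1422 other genes above 100 CPM rose, a larger share than the 13.5% of all genes tested. The class medians of other genes thus went down with length, and the median of the members lay above that of the other genes in each of these 4 classes. The part of length in the result was not tested.

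**Figure D4:**
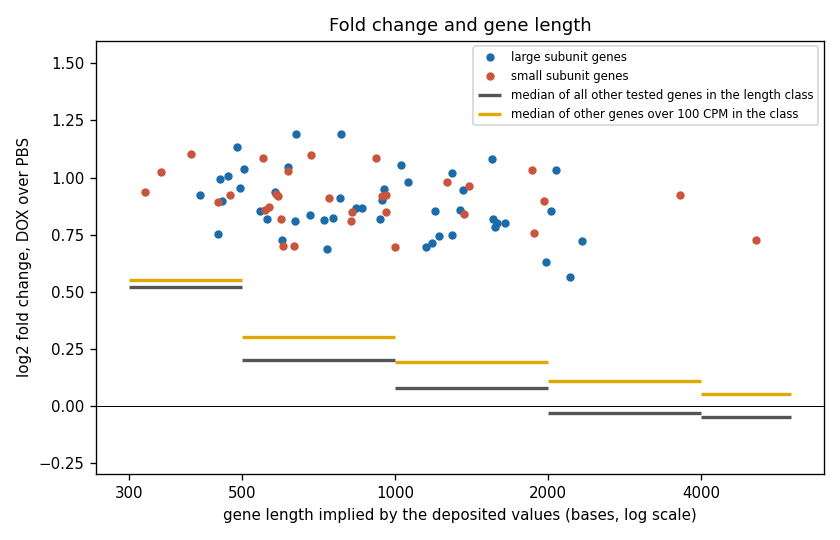
Log2 fold change, DOX over PBS, against the gene length implied by the deposited values (log scale) for each large and small subunit gene, with horizontal lines at the median of all other tested genes and of other genes over 100 CPM in 5 length classes. The lines fall from above 0.5 for the shortest genes to near 0 for the longest, and every ribosomal protein gene lies above both lines of its class.

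The symbol pattern does not match every gene of a ribosomal protein. Fau, a ubiquitin-like protein joined to a small subunit protein, had 434, 282 and 421 CPM in DOX livers, against 206, 231 and 190.3 CPM in PBS livers (log2 fold change 0.86, adjusted p = 0.00362 by edgeR). DOX 2 was the lowest DOX library and PBS 3 the lowest PBS library, as for the members. Of 8 listed paralogues and copies found in the table, 6 were tested, of which 4 rose and 1 fell. Among all genes tested 13.5% rose and 14.0% fell. The list holds only part of the 18 named copies in the table, of which 14 were tested. Rpl36al and Rpl22l1, expressed copies of Rpl36a and Rpl22, rose by 0.61 and 0.66 on the log2 scale, as did the retrocopies Rpl34-ps1 (0.68) and Rps27rt (0.72), while Rpl7l1, a nucleolar relative of Rpl7, fell by 0.35 on the log2 scale (adjusted p = 0.0472 by edgeR). Rps27l did not pass, with a log2 fold change of 0.33 (adjusted p = 0.114). Rpl3l, known from muscle, had 1, 0 and 2 counts in DOX livers and 0, 4 and 0 counts in PBS livers, and Rpl39l, known from testis, had 4, 4 and 0 counts in DOX livers and 0, 0 and 3 counts in PBS livers. Ribosomal protein genes have many near-identical retrocopies. How reads that fit several copies were counted is not stated, so the level of any single member is uncertain to that extent. All 18 copies in the table together held 1.29 to 2.04% of the members' counts per library.

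Other mRNAs that begin with an oligopyrimidine tract rose in part. Of 19 such genes of other proteins, 11 rose and 0 fell, with a median log2 fold change of 0.53, while 13.5% of all genes rose and 14.0% fell. Eif3e, a subunit of an initiation factor, stood at 159.6, 146 and 175 CPM in DOX livers, against 95.5, 102 and 93.1 CPM in PBS livers (log2 fold change 0.72, adjusted p = 0.00108 by edgeR). Tpt1, the translationally controlled tumour protein, rose by 0.91 on the log2 scale, and Rack1, a signalling scaffold on the small subunit, by 0.83. The elongation factors Eef1a1 and Eef2 rose by 0.67 and 0.82 on the log2 scale.

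The machinery that builds ribosomes had smaller median changes than the ribosomal proteins. Of 74 assembly factors, 17 rose and 1 fell, with a median log2 fold change of 0.16, against shares of 13.5% higher and 14.0% lower among all genes. Nmd3, which exports the large subunit from the nucleus, stood at 37.4, 37.9 and 43.4 CPM in DOX livers, against 26.4, 25.3 and 22.6 CPM in PBS livers (log2 fold change 0.68, adjusted p = 0.00170 by edgeR). Ltv1, a factor of the small subunit, rose by 0.61 and Gnl2, a nucleolar GTPase, by 0.68 on the log2 scale. DOX 2 was the lowest DOX library for Gnl2, at 48.7, 40.2 and 55.5 CPM in DOX 1 to 3, and for the sum of the assembly factors, at 2782, 2545 and 2932 CPM, but lay within 1 CPM of DOX 1 for Nmd3 and Ltv1. Nop2, a methyltransferase of 28S ribosomal RNA, was the gene that fell (-0.70). Of 15 genes of RNA polymerase I and its factors, 1 rose and 2 fell, with a median log2 fold change of -0.09. Neither count lay above the share of all genes, 13.5% higher and 14.0% lower. The gene that rose was Taf1d (0.92), and those that fell were Ttf1 and Taf1c (-1.01 and -0.58).

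Among 23 genes of mTORC1 and of the regulators of oligopyrimidine mRNAs, 3 rose and 5 fell, with a median log2 fold change of -0.03, where 13.5% of all genes rose and 14.0% fell, so the share that rose was near that of all genes. The kinase gene Mtor stood at 41.6, 55.7 and 45.3 CPM in DOX livers, against 63.5, 64.5 and 81.9 CPM in PBS livers (log2 fold change -0.56, adjusted p = 0.0117 by edgeR). Its partners Rptor and Mlst8 fell by 0.42 and 0.70 on the log2 scale. Not all genes around the kinase went down. Akt1s1 was higher in DOX livers, with 0.32 as its log2 fold change and an edgeR adjusted p of 0.0333. Deptor and Rheb hardly differed between the groups (log2 fold changes of -0.03 and 0.08) and did not pass. Larp1 had 121 ± 14.5 CPM in DOX and 123 ± 13.5 CPM in PBS livers, and Myc, a transcription factor that raises ribosome production, had 24.6 ± 2.88 CPM in DOX and 24.3 ± 6.09 CPM in PBS livers (SD, n = 3 each), and neither passed. Mxi1, an antagonist of Myc, rose by 0.74 on the log2 scale and Mga, another partner of Max, fell by 0.60. Mycn was near the limit of measurement, at 0, 0.0589 and 0.0635 CPM in DOX livers and 0.691, 0.707 and 0.281 CPM in PBS livers. These are mRNA levels and do not measure the activity of the kinase.

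Of 9 genes for p53, its regulators and its targets, 0 rose and 5 fell, with a median log2 fold change of -0.62, against 13.5% higher and 14.0% lower among all genes. Trp53 itself stood at 14.3, 17.7 and 12.6 CPM in DOX livers, against 30.0, 29.7 and 29.5 CPM in PBS livers (log2 fold change -1.0, adjusted p = 0.000582 by edgeR). Its targets Eda2r and Ccng1 fell by 2.22 and 0.62 on the log2 scale. Mdm2 had a log2 fold change of -0.17 (adjusted p = 0.324) and the cell cycle inhibitor Cdkn1a one of 0.97 (adjusted p = 0.161), and neither passed in edgeR.

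**Figure D5:**
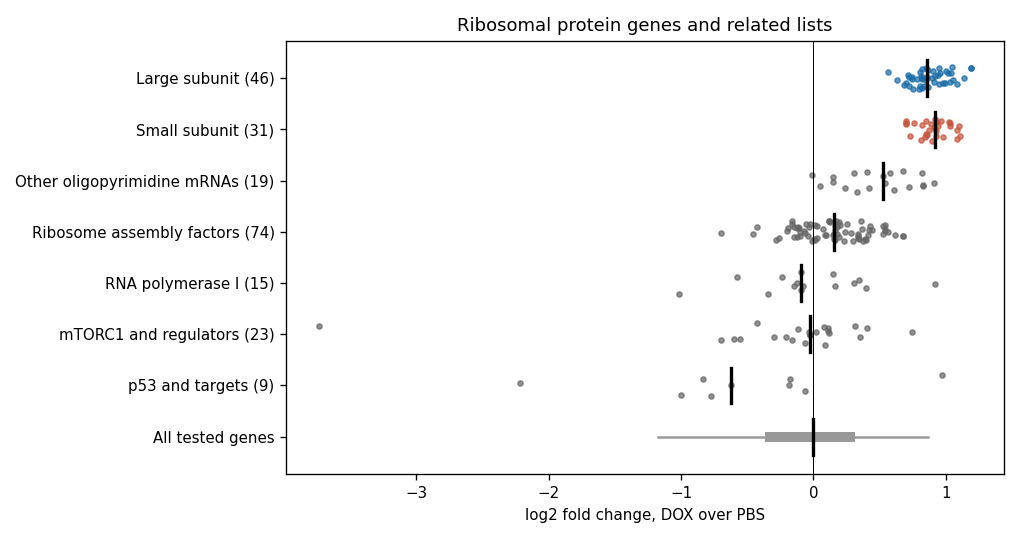
Log2 fold change, DOX over PBS, of each tested gene in 7 lists (points, with vertical bars at the medians), and of all 14681 genes tested (thin line, 5th to 95th percentile, thick line, 25th to 75th percentile). The large and small subunit genes form narrow clusters around 0.85 and 0.92, and the other oligopyrimidine mRNAs spread below them around 0.53. Assembly factors have a median of 0.16, and RNA polymerase I and mTORC1 genes centre near 0 (medians -0.09 and -0.03). The p53 genes have a median of -0.62.

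Total counts ran from 32476725 to 40298256 in DOX livers and from 40592030 to 41921404 in PBS livers. Bche, the gene of butyrylcholinesterase, had 1763 to 1938 CPM in DOX and 177 to 206 CPM in PBS livers, so DOX 2 did not stand apart in it. Mitochondrially encoded genes took 5.39%, 5.11% and 6.81% of counts in DOX 1 to 3, against 4.52%, 4.58% and 3.45% in PBS 1 to 3. In bulk tissue, more cells of a kind and more RNA per cell cannot be told apart. The 8 hepatocyte markers, which were all present, summed to 93880 to 119940 CPM in DOX and 92142 to 98580 CPM in PBS livers, with the highest sum in DOX 2, and 2 of 8 rose. Most of that sum was Alb, at 83125, 92734 and 70899 CPM in DOX 1 to 3 and 70083, 71435 and 72445 CPM in PBS 1 to 3. The sum therefore says little about the other markers. The counts of markers stand beside 13.5% of all genes that rose and 14.0% that fell, and 1 gene of 7 or of 8 is near those shares. Of 7 bile duct markers 1 fell (sum 549 to 808 CPM in DOX, 788 to 956 CPM in PBS), and of 7 stellate cell and fibroblast markers 5 fell (793 to 1087 CPM in DOX, 1305 to 1573 CPM in PBS). Of 7 endothelial markers 3 rose (189 to 226 CPM in DOX, 161 to 182 CPM in PBS), and of 8 macrophage markers 2 rose and 1 fell (999 to 1177 CPM in DOX, 1026 to 1122 CPM in PBS). Neutrophil markers summed to 38.8 to 86.3 CPM in DOX and 38.2 to 59.6 CPM in PBS livers, lymphocyte markers to 1.27 to 2.51 CPM in DOX and 4.07 to 5.5 CPM in PBS, and red cell markers to 134 to 347 CPM in DOX and 154 to 179 CPM in PBS. Of 6 cycling markers 5 fell (58.6 to 65.4 CPM in DOX, 92.7 to 133 CPM in PBS). The part of these cells in the rise of the ribosomal protein genes was not tested.

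Scaled by library size alone, without TMM's correction for composition, 45 large and 31 small subunit genes rose, against 7.0% of all genes, with medians of 0.70 and 0.76, while the median of all genes moved to -0.16. In that scaling higher genes made up 23.1% of all calls, against 48.9% with TMM. With limma on log2(FPKM + 1) and no filter on low values, 7 large and 6 small subunit genes passed, against 2.42% of all genes, and all 77 log2 fold changes stayed positive.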

How the data were processed

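Per the labels' protocols, liver RNA came from RNeasy columns and a SMARTER kit for mRNA-seq gave the libraries. The authors deposited whole-number counts per gene symbol and FPKM values for the 6 libraries. Each deposited FPKM was the count divided by 1 gene length and the library total, to a relative difference under 1e-05, so that lengths were read from it. The submitters' processing notes list GRCm38, mm10 and hg38 with no role. No source used here names the aligner, the counting method or the annotation.

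DOX was compared with PBS in edgeR 4.0.16 (R 4.3.3), by a quasi-likelihood test with robust estimation and group as the only term. The fit covered all 14681 genes that passed filterByExpr (minimum count 10, minimum total 15), with TMM scaling, and all 77 members passed. Adjusted p-values are Benjamini-Hochberg values over all genes tested. Alternatives used DESeq2 1.42.0, limma 3.58.1, other filters and scalings, and fits without each library. Positions and start sequences come from RefSeq on GRCm38.p6. The members and gene lists were chosen with earlier results of these data known, and no set test was run. Some genes are not reported here by name. Named members were the 4 of largest and smallest change, the 4 of smallest p, the 3 of highest and 2 of lowest FPKM in each subunit, and some chosen by role. Each other list gave its 3 called genes of smallest p. Rps27, Rps3, Rps9, Eef1a1, Eef2, Mtor, Rptor, Mlst8, Akt1s1, Deptor, Rheb, Larp1, Myc, Mdm2 and Cdkn1a fall outside this rule and were named after their values were seen. The genes around the exit of the nascent peptide were named as a whole list. Rps10, Rpl35 and Rpl38 were named for their start sequences, chosen for the tract. The edgeR script was first tested on simulated counts. There it recovered 70.7% of 2-fold and 93.8% of 4-fold changes, and 6.98% of its calls were false. Far fewer genes were changed in the simulation than were called in the data, and each gene varied independently. These rates therefore need not hold for the data.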

Additional observations from a re-analysis of the deposited data

How the results depend on the processing

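All 77 genes stayed higher in DOX livers under each of the 17 alternatives to the main edgeR test. The count of genes that passed was 7 of 46 (large) and 6 of 31 (small) with limma on log2(FPKM + 1) without a filter. It was 41 and 25 with the filter, against 6.25% of all genes higher, and 43 and 28 on log2(FPKM + 0.1), against 6.46%. The cause was not tested. With edgeR and without single libraries the count ran from 45 to 46 and from 29 to 31, against 8.05% to 16.2% of all genes higher. The genes lost were Rpl22, Rps15a and Rps27. The median log2 fold change then ran from 0.75 to 1.04 (large) and from 0.78 to 1.09 (small). The ratio of the DOX share of counts to the PBS share ran from 1.55 to 1.88 (large) and from 1.56 to 1.90 (small), and the DOX minus PBS difference in the large to small ratio from -0.02 to -0.0037. Libraries of equal number were not treated as paired. The correlations of their deviations were 0.0861, -0.0731 and -0.134, against -0.132 to 0.192 for libraries of unequal number. With 3 libraries per group these values cannot tell whether pairs exist. With replicate number as a block 46 and 31 genes passed, against 11.1% of all genes higher, with medians of 0.84 and 0.89. DESeq2, RLE factors, a minimum count of 50, and leaving out mitochondrially encoded genes or keeping members out of the TMM reference left all 77 called. In these fits 9.82% to 14.5% of all genes rose. At 32476725 counts or more per library, every member had over 1000 counts in every library, so counting error was small beside the spread between libraries.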
